A study of Mus musculus with 6 samples.

Results

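Glutathione is the main small thiol of the cell, and the genes described here make it, recycle it or spend it. They are 4 glutathione transferases (Gstm1, Gstm5, Gstp1 and Gsto1), both subunits of the enzyme that starts glutathione synthesis (Gclc and Gclm), glutathione reductase (Gsr) and 2 peroxidases (Gpx1 and Gpx4). They were taken by symbol, and all 9 were found among the 23284 genes of each count file. The set was chosen by the counts of Gstm5, which stood higher in NKG2D+ than in NKG2D- cells, so its values are given as a description with no test. The other 8 belong to the same pathway.

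RNA sequencing libraries were made from sorted T cells out of the lymph nodes of mice of the inbred strain C3H/HeJ. There were 3 NKG2D+ libraries, from cells sorted as CD3+CD8+CD44+CXCR3+NKG2D+, and 3 NKG2D- libraries, from cells sorted as CD3+CD8+CD44+CXCR3+NKG2D-. Both gates thus held the surface phenotype of antigen-experienced CD8 T cells and were parted by NKG2D, an activating receptor encoded by Klrk1. No treatment is named, and the sources used here do not give the age, sex or health of the mice. Library totals ran between 63232698 and 89184611 gene counts in NKG2D+ and between 41168816 and 67315805 in NKG2D- libraries. Klrk1 stood at 354 ± 49.7 CPM in NKG2D+ libraries, against 35.9 ± 1.35 CPM in NKG2D- libraries (counts scaled to a library of 1000000, mean ± SD, n = 3 each), and Cd3e at 452 ± 46.1 CPM in NKG2D+ libraries, against 428 ± 34.4 CPM in NKG2D- libraries. Cd8a, Cd8b1 and Cxcr3 overlapped between the populations like Cd3e. Cd44 lay apart, at 430, 177 and 224 CPM in NKG2D+ libraries, against 137, 136 and 133 CPM in NKG2D- libraries (log2 fold change 1.03, adjusted p = 0.130 by edgeR). The cells came from 3 mice, per the series description, and the libraries of each population are numbered 1 to 3. In sorted bulk RNA, fewer cells that express a gene and less RNA per cell cannot be told apart.

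Glutathione transferases join the thiol of glutathione to reactive or fat-soluble compounds, which can then be exported. Glutathione peroxidases use glutathione to reduce hydrogen peroxide and lipid peroxides, and glutathione reductase restores the oxidised form with NADPH. In T cells, glutathione made through Gclc is known to be needed for growth after activation, and Gpx4 is known to protect T cells from lipid peroxidation and ferroptosis.

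Gstm5, a transferase of the mu class, was detected in all NKG2D+ libraries and stood near the limit of detection in NKG2D- libraries. It had 644, 179 and 816 counts in NKG2D+ libraries 1, 2 and 3, and 5, 0 and 11 counts in NKG2D- libraries 1, 2 and 3. These are 9.79, 2.00 and 10.6 CPM in NKG2D+ against 0.126, 0 and 0.172 CPM in NKG2D- libraries. All NKG2D+ libraries lay above all NKG2D- libraries, with NKG2D+ library 2 at 5.09-fold below the mean of NKG2D+ libraries 1 and 3. Groups lay apart in this direction for 15.1% of all genes tested, from which nothing is read for Gstm5. The 0 in NKG2D- library 2 allows up to 0.0507 CPM (3 counts, counting error only). The fitted log2 fold change was 6.22 (SE 0.98), and Gstm5 passed the filter on low counts through its level in NKG2D+ libraries.

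Mu-class genes are close relatives, so their coding sequences were compared to see how far their reads can be told apart. Aligned over the coding sequence (GENCODE M21 transcripts, GRCm38), Gstm5 was identical to Gstm1 at 69.5% and to Gstm4 at 69.9% of 675 positions. The stretch below shows 60 aligned coding bases from near the start codon, beginning at base 12 of Gstm5 and base 3 of the others, with capitals where a gene differs from Gstm5.
Gstm5: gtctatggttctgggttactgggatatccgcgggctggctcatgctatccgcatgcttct
Gstm1: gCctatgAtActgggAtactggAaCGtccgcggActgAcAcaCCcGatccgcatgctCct
Gstm4: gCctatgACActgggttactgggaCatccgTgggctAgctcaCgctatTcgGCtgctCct
In this stretch Gstm1 differed from Gstm5 at 14 bases and Gstm4 at 12. The longest run of identical bases between Gstm5 and any of the other 6 mu-class genes was 24, against Gstm7. Of the 50-base words of the Gstm5 transcript, none was found in another mu-class gene. A share of 14.4% was found in 4933431E20Rik, a noncoding RNA gene on the opposite strand.

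The overlap with 4933431E20Rik lies at the start of Gstm5. Both genes lie on chromosome 3. In GENCODE M21, 178 of the 945 bases of the main Gstm5 transcript, all in the first of its 8 exons, lie in exons of 4933431E20Rik. 4933431E20Rik had 2037, 819 and 2628 counts in NKG2D+ libraries 1, 2 and 3, and 42, 25 and 64 in NKG2D- libraries 1, 2 and 3. Its values followed the order of Gstm5 within NKG2D+ libraries, with library 2 the lowest in both genes. Gstm5 counts amounted to 31.6%, 21.9% and 31.1% of those of 4933431E20Rik in NKG2D+ libraries 1, 2 and 3, and to 11.9%, 0% and 17.2% in NKG2D- libraries 1, 2 and 3. The sources used here do not give the strand setting of the counting, and the library kit named does not mark strand, so reads of Gstm5 and of 4933431E20Rik cannot be told apart where the genes overlap. The annotation used for counting was on mm9, and whether it places the same bases in both genes was not tested.

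The promoter window of Gstm5 is shown because 11 of the 12 transcripts of 4933431E20Rik in GENCODE M21 also begin in it. It spans chr3:107895604-107895903 on the plus strand of GRCm38.p6, from 250 bases before to 50 bases after the RefSeq start of Gstm5, with capitals for the matches to 4 motifs searched on both strands.
Gstm5 promoter: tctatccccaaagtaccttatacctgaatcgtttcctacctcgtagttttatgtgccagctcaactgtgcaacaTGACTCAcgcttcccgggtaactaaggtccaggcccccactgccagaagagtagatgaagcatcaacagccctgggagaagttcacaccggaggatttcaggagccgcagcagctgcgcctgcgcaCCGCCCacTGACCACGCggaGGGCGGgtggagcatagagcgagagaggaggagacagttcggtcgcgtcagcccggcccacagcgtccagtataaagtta
The window held 1 match to TGACNNNGC, the core of the antioxidant response element bound by NRF2, and 1 to TGANTCA, the AP-1 site. It also held 2 matches to the GC box GGGCGG and 0 to CCAAT, and none of the matches overlapped. Of 32851 RefSeq promoter windows of 300 bases, 12.4% held TGACNNNGC, 7.81% TGANTCA, 35.7% GGGCGG and 37.4% CCAAT on either strand. Of the other members, 6 had windows in this table, and among these TGACNNNGC was found in Gclm and TGANTCA in Gstp1. These matches describe letters and are not evidence of binding.

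**Figure D1:**
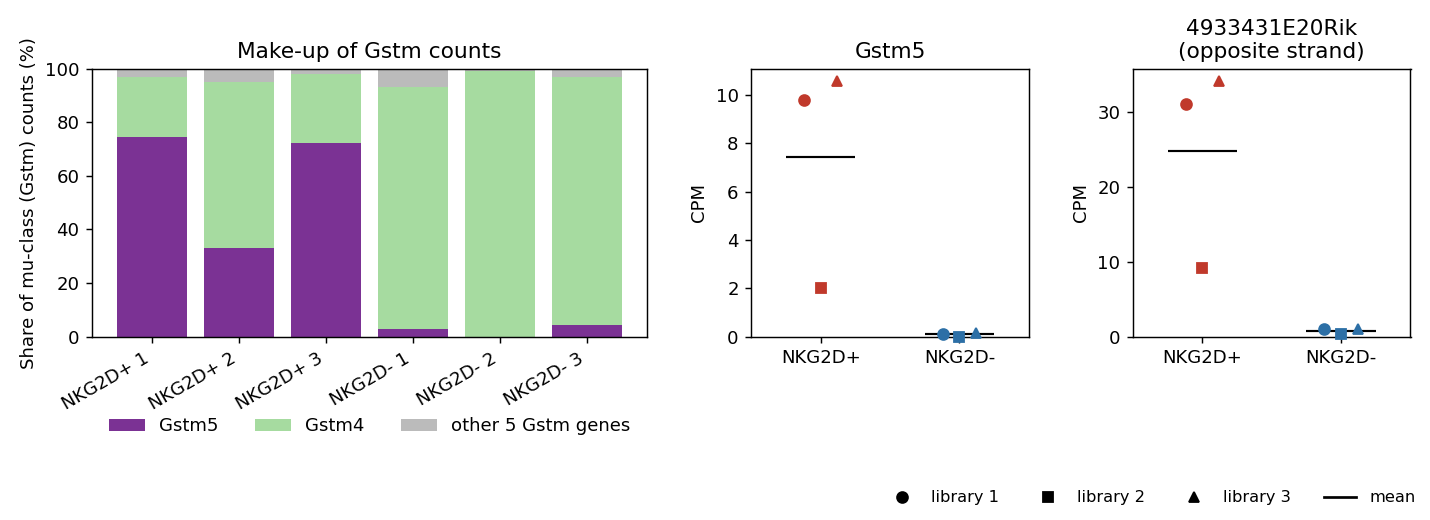
Left, the share (%) of all counts of the 7 mu-class (Gstm) genes held by Gstm5, Gstm4 and the other 5 genes in each library; right, CPM of Gstm5 and of the opposite-strand gene 4933431E20Rik by library, with the mean as a line (n = 3 per group). Gstm5 held 33.0% to 74.5% of mu-class counts in NKG2D+ and 0% to 4.47% in NKG2D- libraries, and NKG2D+ library 2 was the lowest NKG2D+ library in all 3 panels.

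Gstm5 thus made up much of the mu-class counts of NKG2D+ libraries, and Gstm4 nearly all of those of NKG2D- libraries. These shares are not set against transcript length, which is 945 bases for Gstm5 and 1707 for Gstm4. Gstm5 held 74.5% (exact binomial 95% interval 71.4 to 77.3), 33.0% (29.1 to 37.2) and 72.2% (69.5 to 74.8) of mu-class counts in NKG2D+ libraries 1, 2 and 3. In NKG2D- libraries 1 and 3 it held 2.84% (0.929 to 6.50) and 4.47% (2.25 to 7.86). In NKG2D- library 2 it held 0 of 287 counts, which allows a share of up to 1.05%. Intervals and limits cover counting error only, since reads are not independent molecules. Gstm4 stood at 3.50 ± 0.459 CPM in NKG2D+ libraries, against 4.12 ± 0.638 CPM in NKG2D- libraries, and the groups overlapped (log2 fold change -0.23, SE 0.19, adjusted p = 0.536 by edgeR).

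Gstm1, the mu-class gene best known from liver, was barely detected. It had 17, 16 and 11 counts in NKG2D+ libraries, against 6, 2 and 5 counts in NKG2D- libraries 1, 2 and 3, which are 0.259, 0.179 and 0.142 CPM in NKG2D+ libraries, against 0.151, 0.0338 and 0.0780 CPM in NKG2D- libraries. The groups overlapped, and Gstm1 did not pass the filter on low counts, so it was not tested. Of its 50-base words 23.1% are shared with other genes, among them Gstm3 and Gstm2, so its low level is also uncertain.

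The remaining 7 members were compared by the quasi-likelihood test of edgeR, with p-values adjusted over the 12951 genes tested. None of the 7 passed an adjusted p of 0.05, with 1 at an unadjusted p under 0.05, and DESeq2 and limma-voom also called 0. Over all genes tested 2.02% were called, 1.65% as higher and 0.363% as lower in NKG2D+, and 21.1% had an unadjusted p under 0.05. The median log2 fold change of these 7 was -0.02, against -0.01 over all genes tested. Of the 7, 3 lay above 0, beside 47.2% of all genes tested. Their log2 fold changes lay between -0.32 and 0.19, and their SEs between 0.07 and 0.13.

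**Figure D2:**
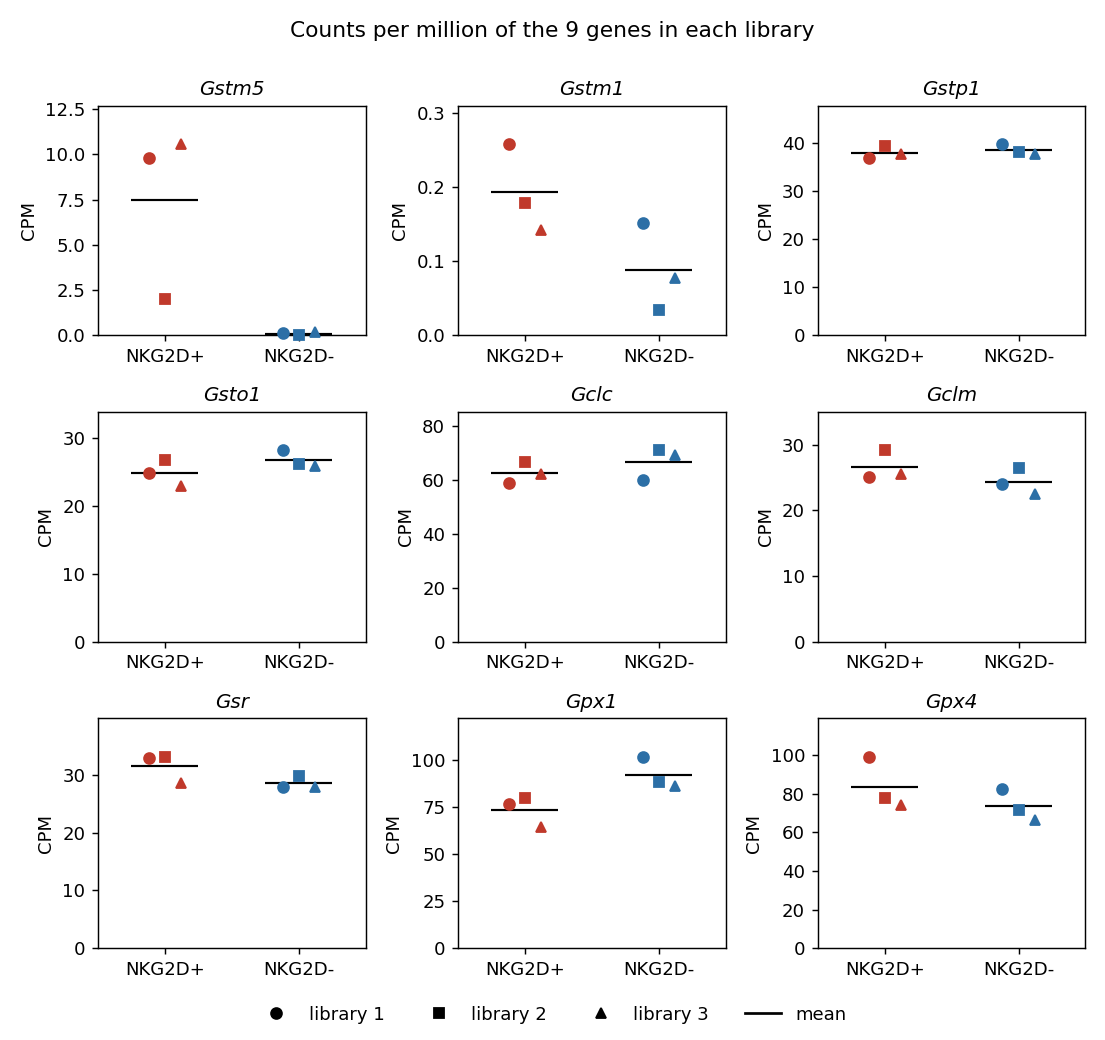
CPM (linear axis from 0) of each of the 9 genes in NKG2D+ and NKG2D- libraries; each point is a library, its shape gives the library number and the line is the mean of 3. The groups lie apart for Gstm5, with NKG2D+ at 2.00 to 10.6 CPM and NKG2D- at 0 to 0.172 CPM, and for Gpx1, with NKG2D+ lower, and overlap in the other 7 panels.

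Gstp1 and Gsto1 had the highest levels per length of the 4 transferases in both populations. Gstp1, the pi-class transferase, stood at 36.9, 39.5 and 37.7 CPM in NKG2D+ libraries, against 39.9, 38.2 and 37.7 CPM in NKG2D- libraries 1, 2 and 3. These 6 values lay within 3.01 CPM of each other, and the groups overlapped (log2 fold change -0.02, SE 0.07, adjusted p = 0.896). Of its 50-base words 62.3% also occur in Gstp2, a near-identical neighbour, so the level of Gstp1 is uncertain. Gstp2 itself stood at 0.12 CPM in both groups. Gsto1, an omega-class transferase that also reduces disulfides and dehydroascorbate, stood at 24.8 ± 1.93 CPM in NKG2D+ libraries, against 26.7 ± 1.24 CPM in NKG2D- libraries, with overlapping groups (log2 fold change -0.10, SE 0.09, adjusted p = 0.555). No 50-base word of Gsto1 was shared with another gene.

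The genes of glutathione synthesis and recycling were expressed in all libraries. Gclc, the catalytic subunit of glutamate-cysteine ligase, stood at 58.6, 66.5 and 62.0 CPM in NKG2D+ libraries, against 59.8, 70.8 and 69.1 CPM in NKG2D- libraries 1, 2 and 3 (log2 fold change -0.09, SE 0.09, adjusted p = 0.603). Gclm, its modifier subunit, stood at 25.1, 29.1 and 25.5 CPM in NKG2D+ libraries, against 24.1, 26.4 and 22.4 CPM in NKG2D- libraries (log2 fold change 0.13, SE 0.10, adjusted p = 0.518). The groups overlapped for both genes, while within same-numbered pairs Gclc was lower in NKG2D+ in 3 of 3 and Gclm higher in 3 of 3. The number of Gclc counts per Gclm count in the same library was 2.34, 2.28 and 2.43 in NKG2D+ libraries, against 2.49, 2.68 and 3.08 in NKG2D- libraries, so on this ratio the groups lay apart. It is 1 of 3 ratios chosen after the counts were seen, and none was tested. Gsr, glutathione reductase, stood at 32.9, 33.2 and 28.6 CPM in NKG2D+ libraries, against 28.0, 29.8 and 27.9 CPM in NKG2D- libraries, again with overlap, and was higher in NKG2D+ in 3 of 3 pairs (log2 fold change 0.14, SE 0.09, adjusted p = 0.398).

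Gpx1 and Gpx4 are selenoproteins: a TGA codon inside the coding sequence is read as selenocysteine, the catalytic residue. The windows of 30 coding bases around that codon are shown with the codon in capitals, beside Gpx8, a related peroxidase of the endoplasmic reticulum with a cysteine codon at the matching place (GENCODE M21 transcripts, GRCm38).
Gpx1: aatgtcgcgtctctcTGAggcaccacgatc
Gpx4: aacgtggcctcgcaaTGAggcaaaactgac
Gpx8: aacgtggctagtgacTGCcgcttcacagac
The capitals are codon 47 of Gpx1, codon 73 of Gpx4 and codon 79 of Gpx8. Gpx1, which reduces hydrogen peroxide in the cytosol, stood at 76.9, 80.0 and 64.5 CPM in NKG2D+ libraries, against 102, 88.7 and 86.5 CPM in NKG2D- libraries 1, 2 and 3. All NKG2D+ libraries lay below all NKG2D- libraries, as did those of 14.1% of all genes tested. The log2 fold change was -0.32 (SE 0.11), with an unadjusted p of 0.0187 and an adjusted p of 0.152, so the difference did not pass the threshold. It was negative in 3 of 3 same-numbered pairs of libraries.

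Gpx4, which reduces lipid peroxides in membranes, stood at 99.2, 77.6 and 74.3 CPM in NKG2D+ libraries, against 82.5, 71.7 and 66.5 CPM in NKG2D- libraries 1, 2 and 3. The groups overlapped, with library 1 the highest in both, and NKG2D+ was higher in 3 of 3 pairs (log2 fold change 0.19, SE 0.13, adjusted p = 0.478). The pseudogene Gpx4-ps2 holds 68.9% of the 50-base words of Gpx4, while none of Gpx1 is shared with another gene. Multiply aligned reads were 19.7% to 21.0% of all recorded reads in NKG2D+ and 21.6% to 26.2% in NKG2D- libraries, a total without unaligned reads. The part of multiply aligned reads in the values of Gpx4 and Gstp1 was not tested. Gpx4 counts per Gpx1 count were 1.29, 0.970 and 1.15 in NKG2D+ libraries, against 0.809, 0.809 and 0.769 in NKG2D- libraries. On this ratio too the groups lay apart. The third ratio, Gstp1 counts per Gsto1 count, was 1.49, 1.48 and 1.65 in NKG2D+ libraries, against 1.42, 1.46 and 1.46 in NKG2D- libraries, again without overlap. All 3 ratios were chosen after the counts were seen. How often ratios of other gene pairs lie apart was not tested, so nothing is read from the 3.

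**Figure D3:**
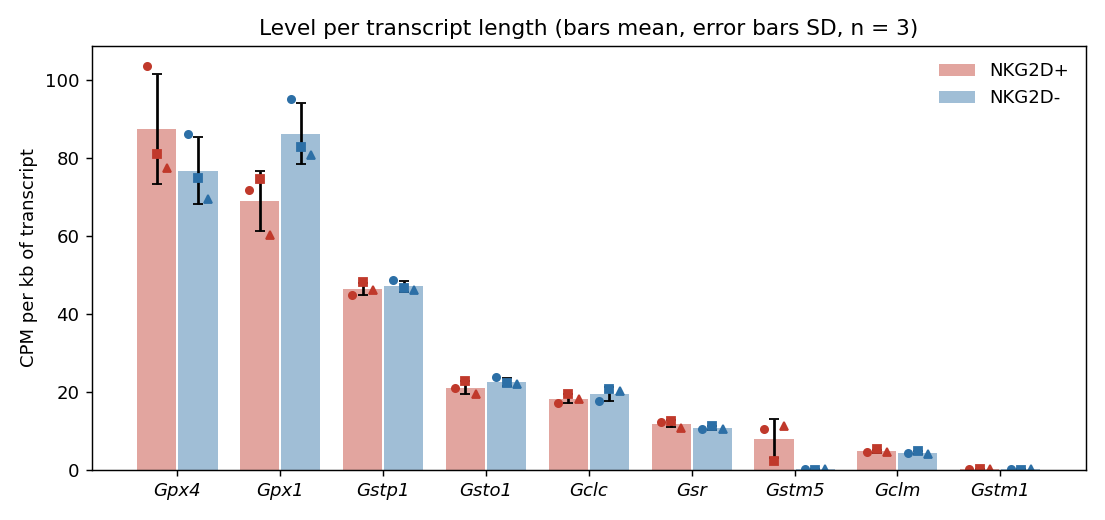
CPM per kilobase of the main transcript (linear axis) for the 9 genes, ordered by the NKG2D+ mean; bars are means, error bars SD (n = 3) and points the libraries. The peroxidases had the highest levels per length in both populations, and Gstm5 stood at 7.89 in NKG2D+ against 0.105 CPM per kb in NKG2D- libraries.

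Set against transcript length, the peroxidases were the most abundant of the 9 genes. Per kilobase of the main transcript, Gpx4 had a level of 87.3 ± 14.1 in NKG2D+ libraries, against 76.7 ± 8.52 in NKG2D- libraries, and Gpx1 one of 68.8 ± 7.66 in NKG2D+ libraries, against 86.1 ± 7.81 in NKG2D- libraries (CPM per kb, mean ± SD, n = 3). The order of these 2 is not settled, since with the length of all annotated exons Gpx1 led in both groups. Gstp1 followed at 46.3 ± 1.66 in NKG2D+ libraries, against 47.0 ± 1.37 in NKG2D- libraries. Gsto1 had 21.0 ± 1.63 and Gclc 18.2 ± 1.16 CPM per kb in NKG2D+ libraries, where the 2 overlapped. In NKG2D- libraries, Gsto1 had 22.6 ± 1.05 and Gclc 19.5 ± 1.72 CPM per kb, and the length of all exons turned their order round.

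Below them stood Gsr at 11.8 ± 0.959 in NKG2D+ libraries, against 10.7 ± 0.411 in NKG2D- libraries, and Gclm at 4.75 ± 0.400 in NKG2D+ libraries, against 4.35 ± 0.358 in NKG2D- libraries (CPM per kb). Gstm5 ranked between them in NKG2D+ libraries at 7.89 ± 5.02 CPM per kb and overlapped with both. In NKG2D- libraries, at 0.105 ± 0.0940 CPM per kb, it overlapped with Gstm1, the lowest member, at 0.0680 ± 0.0460. In NKG2D+ libraries Gstm1 had 0.150 ± 0.0461 CPM per kb.

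The rest of the glutathione pathway and its partner systems were then read from 9 lists of 88 genes, all of which are in the files. Of these, 68 passed the filter and 20 did not. By edgeR with group only, 2 of the 68 rose in NKG2D+ libraries and 0 fell, or 2.94% called beside 2.02% of all genes tested. In this fit 22 of 68 had an unadjusted p under 0.05, beside 21.1% of all genes. With the replicate number as a block, 1 pathway gene was called, Oplah, beside 68 of all 12951 genes tested. The median log2 fold change of the 68 was -0.04.

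Both genes that rose in the group-only fit belong to the thioredoxin and peroxiredoxin list. Of this list 13 of 13 were tested, 2 rose and 0 fell (median log2 fold change 0.01). Of the 13, 8 had an unadjusted p under 0.05 by edgeR, in both directions, beside 21.1% of all genes tested. Srxn1, sulfiredoxin, which repairs over-oxidised peroxiredoxins and is a known NRF2 target, stood at 5.40, 1.07 and 3.56 CPM in NKG2D+ libraries, against 0.227, 0.169 and 0.172 CPM in NKG2D- libraries 1, 2 and 3. The NKG2D+ libraries lay above all NKG2D- libraries, and library 2 was the lowest of them, as for Gstm5. Srxn1 had a log2 fold change of 4.15 (SE 0.64, adjusted p = 0.0341 by edgeR).

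Prdx4, the peroxiredoxin of the endoplasmic reticulum, stood at 26.6, 12.5 and 16.2 CPM in NKG2D+ libraries, against 5.69, 7.05 and 5.71 CPM in NKG2D- libraries (log2 fold change 1.58, SE 0.28, adjusted p = 0.0443). With the replicate number as a block the adjusted p was 0.0558 for Srxn1 and 0.102 for Prdx4, so neither kept its call, and the log2 fold changes were 3.92 and 1.51. Without NKG2D+ library 3, or any 1 of the NKG2D- libraries, both also lost it, with adjusted p-values of 0.111 to 0.201 for Srxn1 and 0.131 to 0.226 for Prdx4. By limma-voom the adjusted p was 0.133 for Srxn1 and 0.118 for Prdx4. The RefSeq promoter window of Srxn1 held 1 match to TGACNNNGC, 2 to TGANTCA, 2 to GGGCGG and 0 to CCAAT. That of Prdx4 held 0, 0, 3 and 1 in the same order. Over all RefSeq windows, 12.4% held TGACNNNGC, 7.81% TGANTCA, 35.7% GGGCGG and 37.4% CCAAT. These matches too are not evidence of binding.

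No gene of the other 8 lists passed in the group-only fit. Over all genes tested, 2.02% were called and 21.1% had an unadjusted p under 0.05. Of 9 tested of 21 other glutathione transferases, 0 rose and 0 fell by edgeR, with 2 at an unadjusted p under 0.05 and a median log2 fold change of -0.23. The smallest p was that of Gstt2, a theta-class transferase, at 11.3 ± 2.25 CPM in NKG2D+ libraries, against 15.2 ± 0.577 CPM in NKG2D- libraries (log2 fold change -0.43, adjusted p = 0.175). The alpha-class genes Gsta1 and Gsta2 had 0 counts in every library. Of 6 other peroxidases, 3 passed the filter and 0 were called by edgeR, with 2 at an unadjusted p under 0.05, Gpx7 and Gpx8. Gpx8 had 10, 17 and 16 counts in NKG2D+ libraries, against 0, 0 and 2 counts in NKG2D- libraries, and so passed the filter through its level in NKG2D+ libraries alone. Its fitted log2 fold change of 3.73 (SE 0.78, adjusted p = 0.0672) is not stable, since it was 6.62 without NKG2D- library 3.

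Among 13 tested of 16 genes of glutathione supply, export and breakdown the median log2 fold change was -0.14, with 2 at an unadjusted p under 0.05. Oplah, the oxoprolinase that returns a breakdown product of glutathione to glutamate, stood at 82.8, 107 and 88.8 CPM in NKG2D+ libraries, against 41.8, 62.7 and 47.0 CPM in NKG2D- libraries 1, 2 and 3. The groups lay apart, yet the adjusted p was 0.0536 (log2 fold change 0.88, SE 0.17). With the replicate block, the log2 fold change of Oplah was 0.89 and the adjusted p 0.0261. Oplah overlaps Smpd5 on the opposite strand and shares 3.3% of its 50-base words with it. Gss, glutathione synthetase, Slc7a11, the cystine carrier, and Slc3a2, its partner chain, had log2 fold changes of -0.19, 0.32 and 0.02, with adjusted p-values of 0.708, 0.729 and 0.871. These 3 were picked after their values were seen.

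**Figure D4:**
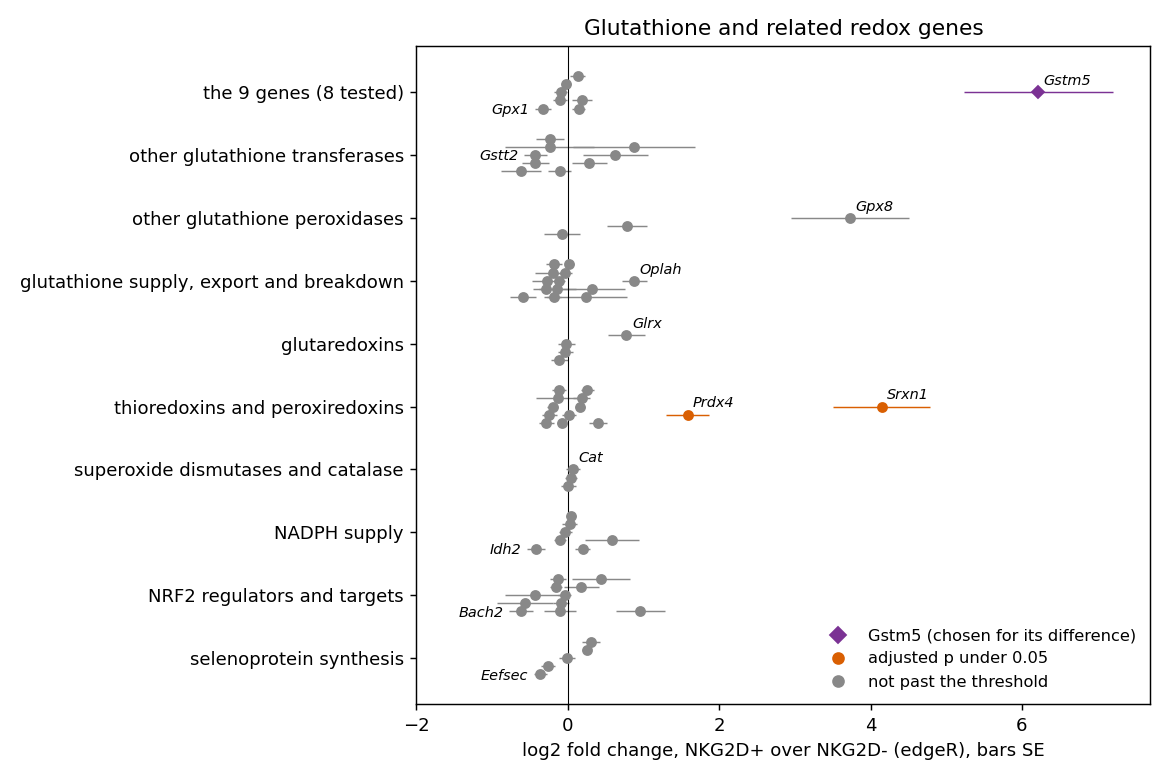
Log2 fold change, NKG2D+ over NKG2D-, of each tested gene of the 9 members and of the 9 pathway lists (points, with SE as bars, edgeR on 6 libraries); orange points have an adjusted p under 0.05 and the purple diamond is Gstm5. Gstm5 lies at 6.22 and the other tested members between -0.32 and 0.19, and among the pathway genes only Srxn1 and Prdx4, at 4.15 and 1.58, passed the threshold in this fit.

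The remaining lists had medians between -0.10 and 0.04. Of 4 glutaredoxins, 1 had an unadjusted p under 0.05, Glrx, the cytosolic glutaredoxin, at 76.0 ± 29.0 CPM in NKG2D+ libraries, against 44.4 ± 1.88 CPM in NKG2D- libraries (log2 fold change 0.78, adjusted p = 0.149). Of 3 tested superoxide dismutase and catalase genes 0 had an unadjusted p under 0.05, and the smallest p was that of Cat, catalase (log2 fold change 0.07, adjusted p = 0.745). Of 7 tested genes of NADPH supply 1 did, Idh2, the mitochondrial isocitrate dehydrogenase (log2 fold change -0.43, adjusted p = 0.113). For Cat and for Gstp1, the sign of the log2 fold change turned when single libraries were left out.

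Of 11 NRF2 regulators and targets, 2 had an unadjusted p under 0.05, beside 21.1% of all genes tested. Of the 11, 3 had log2 fold changes above 0 and 8 below. Hmox1 stood at 2.09 ± 0.828 CPM in NKG2D+ libraries, against 1.07 ± 0.144 CPM in NKG2D- libraries (log2 fold change 0.96, SE 0.32, adjusted p = 0.159 by edgeR). The other of the 2 went the opposite way. The repressor gene Bach2 stood at 36.9 ± 7.80 CPM in NKG2D+ libraries, against 56.6 ± 5.13 CPM in NKG2D- libraries (log2 fold change -0.62, SE 0.16, adjusted p = 0.0987). Of 5 selenoprotein synthesis genes, which serve Gpx1 and Gpx4, 4 had an unadjusted p under 0.05, in both directions, beside 21.1% of all genes. The smallest p was that of Eefsec, the elongation factor for selenocysteine, at 30.6 ± 2.93 CPM in NKG2D+ libraries, against 39.3 ± 1.31 CPM in NKG2D- libraries (log2 fold change -0.36, SE 0.09, adjusted p = 0.0871).

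By the correlation of log2 CPM over the 6 libraries, the genes most like Gstm5 included 4933431E20Rik (r = 0.993), Ccnf (r = 0.992), Slc25a13 (r = 0.991) and Gzmb (r = 0.991). The libraries fall into 2 populations, so a gene chosen for likeness tends to differ between the groups by construction. Gzmb, granzyme B, stood at 469, 112 and 458 CPM in NKG2D+ libraries, against 22.2, 10.1 and 20.4 CPM in NKG2D- libraries. It was lowest in library 2 of each population, as was Gstm5.

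Summed levels of markers of other cell types were compared between the populations, with NKG2D+ library 1 the highest library for B cells, myeloid cells and CD4 T cells. The sum over 10 B-cell markers was 567, 375 and 414 CPM in NKG2D+ libraries 1, 2 and 3, against 107, 267 and 228 CPM in NKG2D- libraries 1, 2 and 3. All 10 had positive log2 fold changes, with 0 called by edgeR and 9 at an unadjusted p under 0.05. The shares over all genes tested were 47.2% above 0, 2.02% called and 21.1% at an unadjusted p under 0.05. Among NKG2D+ libraries, Srxn1 and Prdx4 were highest in library 1, and Gstm5 in library 3. Without NKG2D+ library 1, the log2 fold change was 3.62 for Srxn1 and 1.22 for Prdx4, with adjusted p-values of 0.0158 and 0.0105. The B-cell sums of NKG2D+ libraries 2 and 3 also lay above those of all NKG2D- libraries, so this refit cannot separate B cells. Their part in the values of Srxn1 and Prdx4 was not tested. For 3 gamma-delta and NKT cell markers the sum was 9.95 to 16.7 CPM in NKG2D+ libraries, against 1.41 to 8.03 CPM in NKG2D- libraries. It is mostly Blk, which is also among the 10 B-cell markers, while Sox13 overlapped between the groups.

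For 7 NK-cell markers the sum was 895 to 974 CPM in NKG2D+ libraries, against 762 to 813 CPM in NKG2D- libraries. Most of it is Nkg7, a granule gene that CD8 T cells also express, at 605 to 772 CPM in NKG2D+ libraries, against 477 to 524 CPM in NKG2D- libraries. Of the 6 tested, 5 had a positive log2 fold change and 5 an unadjusted p under 0.05, beside 47.2% and 21.1% of all genes. By edgeR 1 rose, beside 1.65% of all genes tested. This was Klre1, a lectin-like receptor gene, at 3.03, 13.5 and 11.5 CPM in NKG2D+ libraries, against 0.730, 0.778 and 1.34 CPM in NKG2D- libraries (log2 fold change 3.28, adjusted p = 0.0498 by edgeR). Its call was not followed under the alternatives. Eomes overlapped between the groups, at 253 ± 104 CPM in NKG2D+ libraries, against 291 ± 11.6 CPM in NKG2D- libraries (log2 fold change -0.20, adjusted p = 0.748 by edgeR). Klra8 had 1 count over all 6 libraries. Whether C3H/HeJ mice carry this gene was not tested, so nothing is read from its count.

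For 4 CD4 T-cell markers the sums overlapped, at 123, 44.4 and 58.5 CPM in NKG2D+ libraries, against 51.9, 55.9 and 47.8 CPM in NKG2D- libraries. Cd4 itself overlapped between the groups. Foxp3, the regulatory T-cell factor, lay apart with NKG2D+ lower (log2 fold change -1.81, adjusted p = 0.0687). Cd40lg (3.44, adjusted p = 0.124) and Zbtb7b (0.87, adjusted p = 0.0870) lay apart with NKG2D+ higher, and none of these genes was called by edgeR. Among all genes tested, 15.1% lay apart with NKG2D+ higher and 14.1% with NKG2D+ lower. Cd40lg was uneven within NKG2D+: library 1 reached 47.7 CPM, while library 2 had 3.57 CPM and library 3 had 6.90 CPM. Its highest NKG2D- library had 2.09 CPM.

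For 14 myeloid markers the sum was 39.2, 19.9 and 31.2 CPM in NKG2D+ libraries, against 18.0, 22.3 and 22.1 CPM in NKG2D- libraries, and the groups overlapped. Of the 12 tested, 0 were called by edgeR and 5 had an unadjusted p under 0.05, beside 2.02% and 21.1% of all genes. The groups lay apart for 3 with NKG2D+ higher (Lyz2, Csf1r and Xcr1) and for 1 with NKG2D+ lower (Clec9a). The shares over all genes tested were 15.1% and 14.1%. For 6 erythroid markers the sum was 0.376 to 0.547 CPM in NKG2D+ libraries, against 0.187 to 0.579 CPM in NKG2D- libraries, mostly Alas2. For 12 stromal and endothelial markers it was 55.7 to 60.6 CPM in NKG2D+ libraries, against 69.8 to 71.9 CPM in NKG2D- libraries, mostly Pecam1. Cdh5 and Lyve1 had 15 counts or fewer in every library, so nothing is read from this sum for endothelial cells. Hba-a1, Hba-a2, Ccl19 and Ccl21a had 0 counts in every library. Reads aligned to several places were not counted for genes, and their part in these 0 values was not tested. Of the 4 tested stromal and endothelial markers, 2 rose and 1 fell by edgeR, beside 1.65% and 0.363% of all genes tested. Col1a1 (log2 fold change 1.42, adjusted p = 0.0339) and Pdgfrb (3.78, adjusted p = 0.0248) rose and Pecam1 (-0.47, adjusted p = 0.0240) fell. Pdgfrb passed the filter on low counts through NKG2D+ libraries, with 10, 5 and 6 counts in NKG2D- libraries. Col3a1, Pdgfra, Cdh5, Lyve1, Pdpn, Ccl19, Ccl21a and Dcn did not pass the filter. The part of other cell types in the values of Gstm5 was not tested.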

How the data were processed

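RNA sequencing of 6 libraries was used. The authors deposited raw counts of reads for each gene symbol, with no normalisation. Per the submitters' processing notes, the tools were CASAVA 1.8.2 and TopHat2 2.0.4, with genome build mm9. The sources used here do not name the counting tool, annotation or strand setting. The 5 summary values of each file entered neither library sizes nor tests. As shares of gene counts and summary values together, reads outside genes were 14.0% to 15.9% and ambiguous reads 0.715% to 0.836%. Those aligned to several places were 19.7% to 26.2%, and the other 2 values were 0.

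Counts were fitted in R 4.3.3 with edgeR 4.0.16 (TMM, filterByExpr with a minimum count of 10 and minimum total of 15, robust quasi-likelihood in legacy mode, group only). Benjamini-Hochberg adjustment covered 12951 genes, threshold 0.05. CPM values use the library totals over tested genes times the TMM factors. An SE is the log2 fold change divided by the root of F. The test was checked on simulated counts. Alternatives were RLE factors, DESeq2 1.42.0, limma-voom (limma 3.58.1), no filter, the replicate number as a block and each library left out. Same-numbered libraries were taken as pairs because the series description names 3 mice and deviations from group means correlated with r = 0.21, 0.16 and 0.28 in the 3 pairs. Within groups, chi-square over degrees of freedom was 40.7 to 235 for every pair of libraries, well past sampling noise.

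Transcripts came from GENCODE M21 and promoters from RefSeq, both GRCm38, so lengths and shared 50-base words may differ from the mm9 annotation. For each gene the longest principal coding transcript was used. The members and lists were chosen with earlier results of these data known. Named genes are the 9 members, called genes of each list (or the smallest p where none was called), and the 5 genes most correlated with Gstm5 (log2 CPM, prior count 2). Of these 5, 1 is not reported here. Other named genes are marked.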

Additional observations from a re-analysis of the deposited data

How the results depend on the processing

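The number of genes called was 261 of 12951 by edgeR, 1442 by DESeq2, 83 by limma-voom and 68 with the replicate block, and it ran between 8 and 1312 with single libraries left out (543 without NKG2D+ library 1, 1312 without 2 and 15 without 3, and 21 without NKG2D- library 1, 13 without 2 and 8 without 3). Pathway genes called numbered 2 by edgeR, 10 by DESeq2 (6 higher, 4 lower), 0 by limma-voom (22 of 68 at an unadjusted p under 0.05) and 1, Oplah, with the replicate block, and 0 to 11 with single libraries left out (4 without NKG2D+ library 1, 11 without 2, and 0 without NKG2D+ library 3 or any of the NKG2D- libraries). RLE factors and no filter on low counts left both numbers within 1.5 times. Apart from Gstm5, 0 members were called under all 11 alternatives, with 1 or, with the block, 2 (Gpx1 and Gpx4, adjusted p = 0.119 and 0.151) at an unadjusted p under 0.05, and the block changed no member's call. The log2 fold change of Gstm5 ran between 5.59 and 7.09. That of Gstp1 ran between -0.0485 and 0.0032 and that of Cat between -0.0325 and 0.12 with single libraries left out, and the other tested members kept their sign. For Gpx1 the adjusted p ran between 0.077 and 0.357. The cause of these changes was not tested. Depth limits Gstm1, with 44 counts in all in NKG2D+ and 13 in NKG2D- libraries.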
